A study of Mus musculus with 12 samples.

Results

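Conjugation by UDP-glucuronosyltransferases (UGT), sulfotransferases (SULT) and glutathione S-transferases (GST, with the microsomal MGST) was followed at the RNA level in mouse liver. The genes were taken from the table of liver counts by symbol, as those starting with Ugt1, Ugt2, Ugt3, Sult, Gsta, Gstm, Gstp, Gstt, Gstk, Gsto, Gstz or Mgst. Of 73 such symbols among 48795 genes, 7 that end in -ps (pseudogenes) and 7 with under 10 counts summed over all mice were left out, which gave 59 genes, of which 19 are UGT, 17 are SULT and 23 are GST or MGST genes. The count minimum left out Sult2b1 and Sult4a1 with 7 counts each, and just kept Sult6b1 with 12.

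Livers came from 12 female mice aged 4 months, age-matched littermates on chow, with 3 mice in each of 4 groups: Nts+/+ fed freely, Nts+/+ fasted for 22 h, Nts-/- fed freely and Nts-/- fasted for 22 h. Nts encodes neurotensin, a gut and brain peptide, and was inactivated in the Nts-/- mice. How it was inactivated is not given in the sources used here. All 12 livers carry the same value in the batch label. Each library is a whole liver sample of 1 mouse, so lower RNA per hepatocyte and fewer of the cells that make it cannot be told apart.

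The libraries held 21999647 to 45273069 counts. Nts itself was counted 0 times in the 6 livers labelled Nts+/+ and 4 to 46 times in each of the 6 livers labelled Nts-/-, which goes against the labels if the counted reads come from an intact gene. Groups are therefore called by their labels below, and every genotype direction rests on them. The sum over 5 hepatocyte markers (Alb, Apoa1, Ttr, Serpina1a and Cps1) was 106000 to 139000 CPM (a gene's counts relative to depth) in every liver. Of 6 kidney markers, 5 had no count in any liver. CPM below are TMM-normalized (scaled by edgeR for library composition).

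Conjugating enzymes add a polar group to lipophilic compounds so that these can leave the liver in bile or blood. UGT enzymes of the endoplasmic reticulum transfer glucuronic acid from UDP-glucuronate to bilirubin, steroids, bile acids and drugs, cytosolic SULT enzymes transfer sulfate from PAPS (3'-phosphoadenosine 5'-phosphosulfate) to steroids, thyroid hormones and phenols, and GST enzymes couple glutathione to electrophiles such as lipid peroxidation products. Many of these genes stand in clusters of close copies, and nuclear receptors and the antioxidant factor NRF2 are known to act on their promoters.

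The liver RNA of these families was dominated by a few genes. Levels are compared between genes per kb of the longest annotated transcript. Mgst1, a microsomal transferase that also reduces lipid peroxides, had the highest level, at 2130 CPM per kb ± 321 (SD, n = 12 mice, lowest 1590, highest 2560). Gstm1 and Gsta3, a mu and an alpha class enzyme, followed with 793 ± 412 and 770 ± 289 CPM per kb, and these levels did not differ beyond their spread over mice. Gstp1, the main pi class gene, stood at 368 ± 151, Sult1a1, a phenol sulfotransferase, at 320 ± 86.5, Ugt2b5 at 295 ± 59.9 and Ugt1a1, the bilirubin-conjugating enzyme, at 282 ± 58 CPM per kb, again with overlapping ranges. Ugt2b36 had 177 ± 22.4, Ugt3a2 had 169 ± 24.9 and Gstz1, an enzyme of tyrosine breakdown, had 150 ± 19.2 CPM per kb. In all, 16 genes were above 100, 37 above 10 and 52 of the 59 above 1 CPM per kb.

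**Figure D1:**
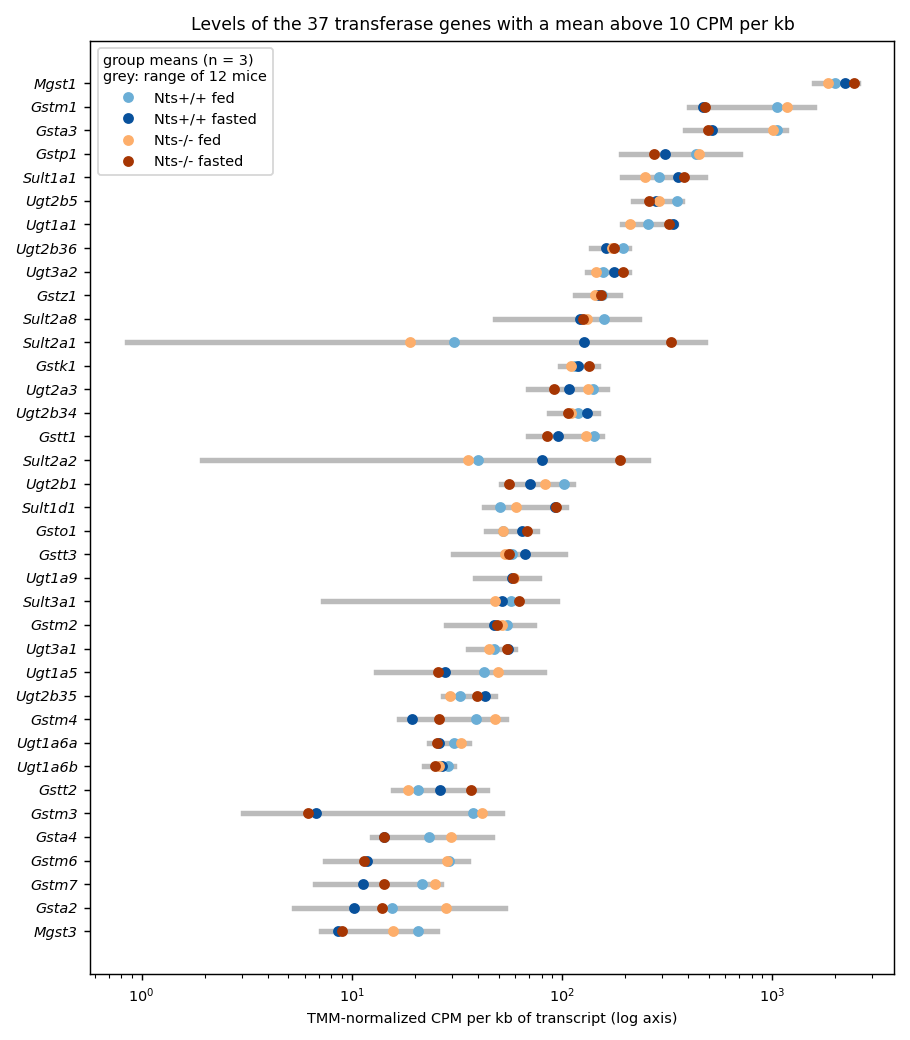
TMM-normalized CPM per kb of transcript on a log axis for the 37 genes with a mean above 10 CPM per kb, with the mean of each group of 3 mice as a coloured point and the range of the 12 mice as a grey bar. Mgst1 leads at 2130 CPM per kb, and Sult2a1 has the widest bar, from 0.853 to 480 CPM per kb.

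Glutathione transferases took a smaller share of liver RNA in fasted mice. GST and MGST genes together held 0.759% to 0.871% of all counts in fed Nts+/+ livers and 0.560% to 0.618% in fasted ones, with no overlap between the groups. In livers labelled Nts-/- the share was 0.800% to 0.877% fed and 0.591% to 0.630% fasted, again without overlap. The 3 most abundant of these genes did not move alike. Mean Gsta3 went from 1770 to 868 and Gstm1 from 1620 to 724 CPM in Nts+/+ livers, but Mgst1 from 2490 to 2780 CPM. The means in Nts-/- livers were 1700 and 830, 1830 and 739, and 2280 and 3060 CPM. UGT genes held 0.372% to 0.493% and SULT genes 0.0713% to 0.206% over all mice, and the fed and fasted ranges of both families overlapped in each genotype. These shares are descriptions without a test.

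**Figure D2:**
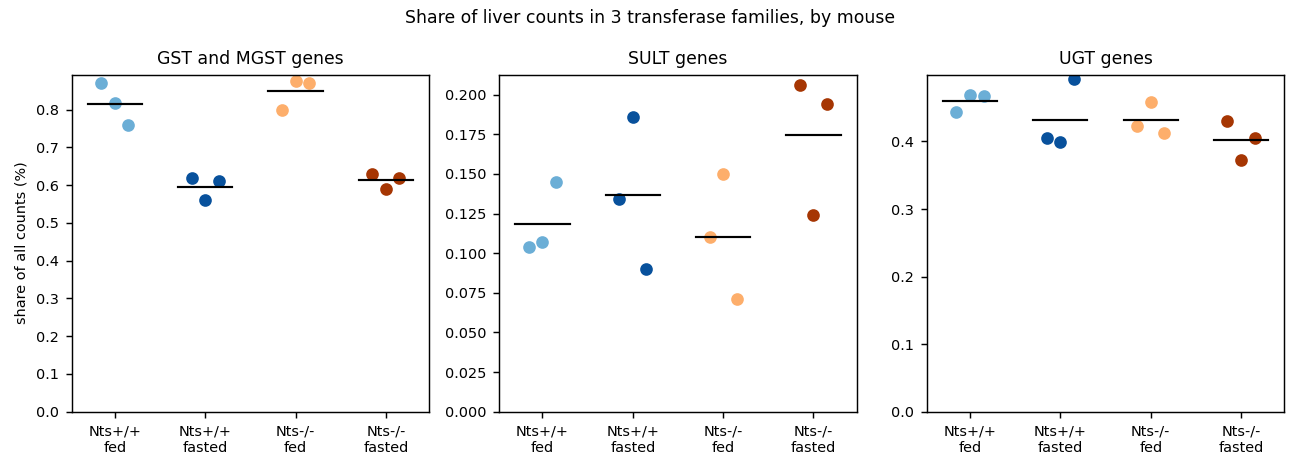
Share of all counts in GST and MGST, SULT and UGT genes, with 1 point per mouse and a line at the mean of each group of 3. The GST and MGST share of every fasted mouse (at most 0.630%) is below that of every fed mouse (at least 0.759%).

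To ask what a 22 h fast did to these genes in each genotype, edgeR's quasi-likelihood test was run over 13812 genes, of which 54 are members, and p values were adjusted by the Benjamini-Hochberg method over all 13812. Mgst2, Gsto2, Sult6b1, Ugt1a2 and Ugt1a8 had too few counts to be tested. Fasting changed 15 of 54 genes in Nts+/+ livers at an adjusted p under 0.05, with 2 higher and 13 lower, where 18.1% of all genes passed (8.91% higher and 9.19% lower). The count was 7 without mouse 254, 7 without mouse 257, 6 without mouse 282 and at most 12 with any 1 mouse left out. In livers labelled Nts-/-, 16 of 54 changed, with 4 higher and 12 lower, where 16.8% of all genes passed (7.7% higher and 9.14% lower). That count was 9, 10, 10, 7 and 8 without mouse 277, 303, 284, 290 and 295, and at most 12 with any 1 mouse left out. At an unadjusted p under 0.05 the counts were 19 and 26 of 54, beside 32.5% and 31.7% of all genes. The median log2 fold change of the 54 genes was -0.25 in Nts+/+ and -0.053 in Nts-/- livers, beside -0.0032 and -0.011 over all genes tested.

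The lower genes were mostly GST genes. Of 21 tested GST and MGST genes, 9 fell in Nts+/+ livers and none rose, and in livers labelled Nts-/- 8 fell and 1 rose. The same comparison of 17 UGT genes gave 3 lower in Nts+/+, and 4 lower with 2 higher in Nts-/-. Of 16 SULT genes, 2 rose and 1 fell in Nts+/+, and 1 rose in Nts-/-. In Nts+/+ livers 42.9% of GST and MGST, 17.6% of UGT and 18.8% of SULT genes passed, beside 18.1% of all genes. The UGT and SULT counts in Nts+/+ were thus near the share of all genes. In Nts-/- livers the shares were 42.9%, 35.3% and 6.25%, beside 16.8% of all genes. In both genotypes 11 genes fell and 1 rose, where 10.7% of all genes passed in the same direction in both (5.22% higher and 5.5% lower). These counts include Sult1e1 and Ugt2b38, which passed the filter on low counts through 1 feeding state, so their tests are no support.

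**Figure D3:**
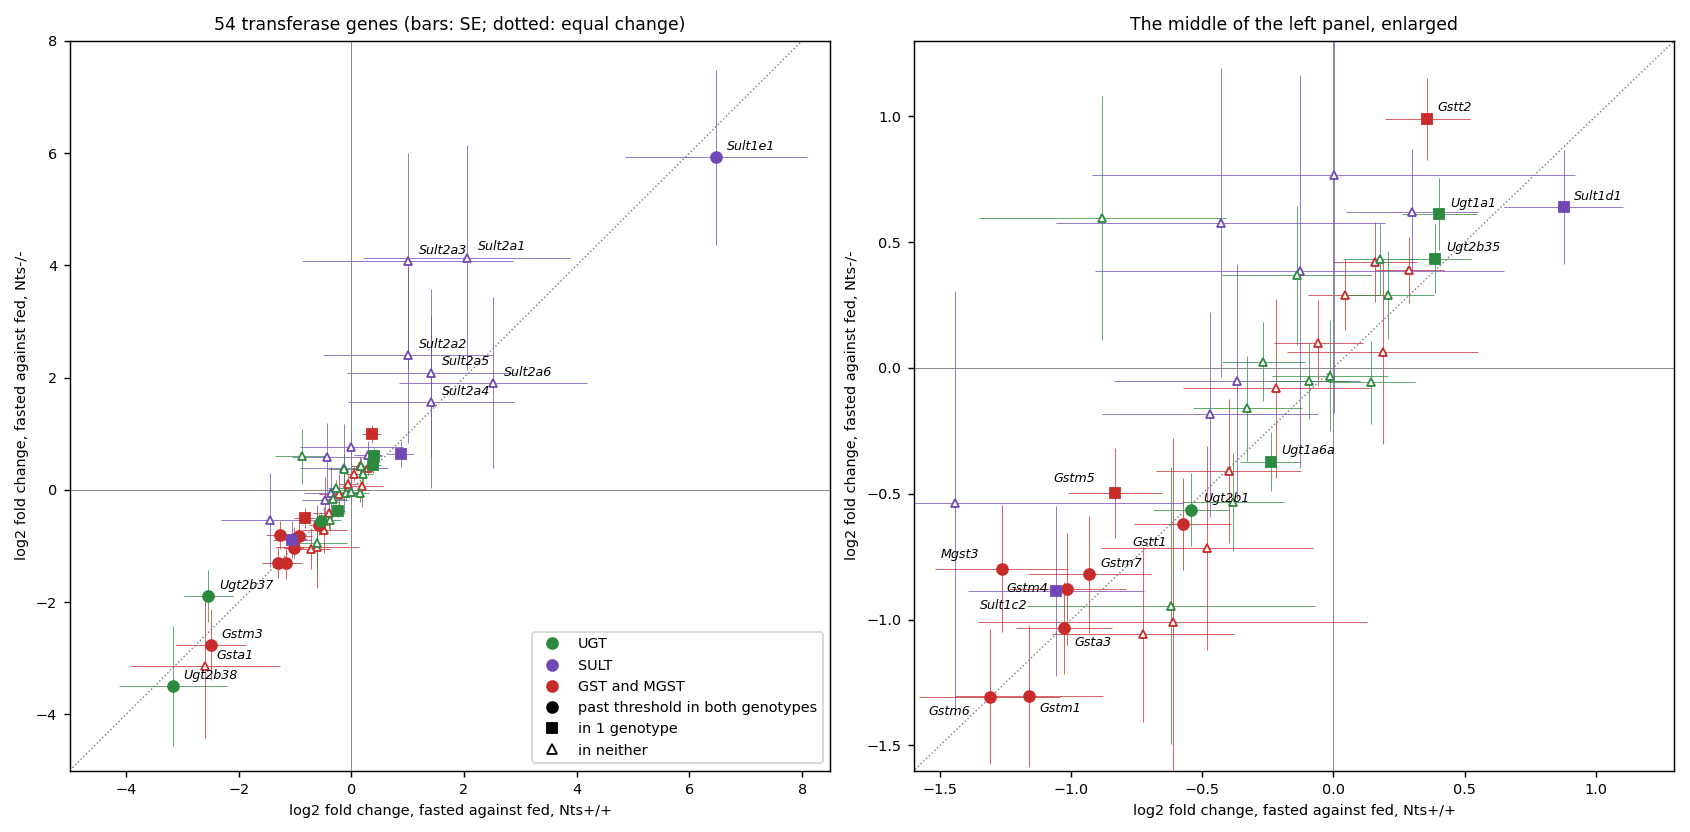
Log2 fold change of the 54 tested genes, fasted against fed, in Nts+/+ (x axis) and Nts-/- (y axis) livers, with the standard errors of the edgeR fit as bars and a dotted line of equal change. The left panel holds all 54 genes and the right panel enlarges its middle. The wide bars of Sult2a1 to Sult2a6, above 0 on both axes, belong to genes that did not pass the test.

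The mu class showed the most regular fall. Its 7 genes stand side by side on chromosome 3 (107895821 to 108044894, GRCm38). With fasting, 6 of 7 fell in Nts+/+ and 5 of 7 in Nts-/- livers, beside 9.19% and 9.14% of all genes tested. The class medians were -1.01 and -0.88 on the log2 scale. Mu class enzymes conjugate epoxides and other electrophiles, and Gstm1 is the abundant one in liver. Gstm2, the remaining gene of the cluster, had log2 fold changes of -0.22 (edgeR adjusted p 0.719) and -0.082 (adjusted p 0.906). Gstm1, Gstm2, Gstm3 and Gstm6 share 16.5%, 25.4%, 26.8% and 6.46% of their 50-base words (stretches of transcript) with other genes. Gstm4, Gstm5 and Gstm7 share none. The part of shared reads in the common fall was not tested.

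Gstm1 stood at 1890, 2080 and 885 CPM in the 3 fed Nts+/+ livers and at 736, 708 and 729 CPM in the fasted ones. In livers labelled Nts-/- it stood at 1440, 1590 and 2460 CPM fed and at 624, 851 and 743 CPM fasted. Every fasted liver was below every fed liver of its genotype, and mouse 323 was the lowest of the fed ones. The log2 fold change was -1.16 ± 0.28 (SE) in Nts+/+ (edgeR adjusted p 0.0138) and -1.30 ± 0.28 in Nts-/- (adjusted p 0.00804). The first call was lost without mouse 254, 257 or 282, with adjusted p of up to 0.0605.

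Gstm3, a mu class gene with a far lower level, had the larger fold change. It fell from 73.1, 70.6 and 16.0 CPM to 13.4, 7.37 and 7.78 CPM in Nts+/+, and from 52.0, 67.2 and 56.7 CPM to 4.26, 15.2 and 6.59 CPM in Nts-/- livers. The groups did not overlap, and mouse 323 again stood close to the fasted livers. These are log2 fold changes of -2.50 ± 0.62 (edgeR adjusted p 0.0245) and -2.76 ± 0.63 (adjusted p 0.0175). The calls were lost without mouse 254, 257, 282 or 322 in Nts+/+ (adjusted p 0.0720 to 0.0988), and without mouse 303, 284 or 295 in Nts-/- (adjusted p 0.0509 to 0.0670).

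Gstm6 fell from 105, 95.9 and 56.4 CPM to 47.0, 34.9 and 22.0 CPM in Nts+/+ and from 73.4, 96.9 and 79.8 CPM to 31.6, 37.3 and 32.1 CPM in Nts-/- livers. The size was the same in both, at -1.31 ± 0.27 on the log2 scale (edgeR adjusted p 0.00691 and 0.00694), and both calls held with each of the 6 mice left out. Gstm4 went from 83.4, 55.2 and 63.2 CPM to 37.8, 28.6 and 33.6 CPM, and in Nts-/- from 81.0, 93.2 and 73.5 CPM to 29.2, 47.9 and 57.5 CPM. Its log2 fold changes were -1.01 ± 0.22 (adjusted p 0.00834) and -0.88 ± 0.22 (adjusted p 0.0171), the second of which was lost without mouse 277 or 303 (adjusted p 0.0504 and up to 0.0667). Fed and fasted values of both genes were apart in each genotype.

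Gstm7 fell from 66.3, 59.4 and 55.0 CPM to 43.5, 33 and 18.6 CPM in Nts+/+ and from 67.0, 68.6 and 74.7 CPM to 33.7, 38.6 and 46.6 CPM in Nts-/- livers, with no overlap. The log2 fold changes were -0.93 ± 0.23 (edgeR adjusted p 0.0164) and -0.82 ± 0.23 (adjusted p 0.0295). The Nts+/+ call was lost without mouse 254 or 282 (adjusted p up to 0.0668), and the Nts-/- call when any mouse but 295 was left out (adjusted p 0.0695 to 0.111). Gstm5, best known from brain and testis, passed in Nts+/+ livers only, where it went from 13.4, 9.05 and 13.7 CPM to 7.64, 6.24 and 6.42 CPM. Its log2 fold change was -0.83 ± 0.18 (adjusted p 0.0072) in Nts+/+, held with each mouse left out, and -0.50 ± 0.18 (adjusted p 0.0743) in Nts-/- livers. The difference between the genotypes, 0.34 ± 0.25, did not pass (adjusted p 0.901).

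In the RefSeq windows of 250 bases before each start (GRCm38.p6), which matched 52 of the 59 genes, the core letters of the antioxidant response element, TGACNNNGC, were searched on both strands. NRF2, the factor known for this element, acts on many GST genes. The letters were found in 4 of 52 genes (7.69%), Gsta3, Gstm5, Gstm7 and Mgst1, beside 11.5% of 27025 genes with such a window. The stretches of 60 bases around them are shown because 3 of the 4 genes fell with fasting in at least 1 genotype and the fourth has the highest level, with the letters in capitals, read in the direction of the gene. In order, they lie at chr1:21240438-21240497 (plus strand), chr3:107895786-107895845 (plus), chr3:107931710-107931769 (minus) and chr6:138140445-138140504 (plus), and in Mgst1 the letters run on the opposite strand.
Gsta3: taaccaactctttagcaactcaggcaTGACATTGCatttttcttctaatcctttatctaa
Gstm5: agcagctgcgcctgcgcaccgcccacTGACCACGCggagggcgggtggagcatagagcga
Gstm7: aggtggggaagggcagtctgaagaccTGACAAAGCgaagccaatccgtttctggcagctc
Mgst1: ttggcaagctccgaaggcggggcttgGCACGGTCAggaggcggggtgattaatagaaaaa
The match begins 121, 42, 129 and 56 bases before the start. Gstm1, Gstm3, Gstm4 and Gstm6, which fell in both genotypes, do not hold these letters in this window. A match is a description of the letters only.

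Outside the mu cluster, 3 GST or MGST genes fell in both genotypes. Gsta3, the abundant alpha class gene known for clearing aflatoxin epoxide in mice, was the steadiest of them. It stood at 1830, 1770 and 1710 CPM in fed and 991, 866 and 746 CPM in fasted Nts+/+ livers, and at 1530, 1940 and 1630 CPM in fed and 1060, 644 and 784 CPM in fasted Nts-/- livers. The highest fasted liver was far below the lowest fed one. The log2 fold change was -1.03 ± 0.18 in Nts+/+ (edgeR adjusted p 0.00228) and -1.04 ± 0.18 in Nts-/- (adjusted p 0.00202), and both held with each mouse left out.

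Gstt1, a theta class enzyme that acts on small halogenated compounds, fell less. It went from 273, 299 and 250 CPM to 241, 178 and 133 CPM in Nts+/+, and from 253, 279 and 219 CPM to 175, 152 and 163 CPM in Nts-/- livers. Fed and fasted values did not overlap, though mouse 265 (241 CPM) came near the fed range. The log2 fold changes of -0.58 ± 0.18 (edgeR adjusted p 0.0442) and -0.62 ± 0.18 (adjusted p 0.0341) each survived the loss of 1 mouse only when it was 265 in Nts+/+ or 319 in Nts-/-, and otherwise reached adjusted p of 0.0516 to 0.134 and 0.0682 to 0.118.

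Mgst3, a microsomal glutathione transferase and peroxidase, went from 39.6, 38.0 and 18.1 CPM to 14.1, 12.7 and 13 CPM in Nts+/+ and from 20.8, 26.0 and 26.0 CPM to 17.4, 11.1 and 13.4 CPM in Nts-/- livers. Again the groups were apart, with mouse 323 the lowest fed Nts+/+ liver. The log2 fold change of -1.27 ± 0.25 in Nts+/+ (edgeR adjusted p 0.00543) held with each mouse left out. That of -0.80 ± 0.25 in Nts-/- (adjusted p 0.0474) was lost when any mouse but 284 was left out, with adjusted p of 0.0690 to 0.160.

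Gstt2, a theta class gene near Gstt1 on chromosome 10, went the other way. It stood at 61.2, 50.9 and 48.4 CPM in fed and 80.7, 63.7 and 61.4 CPM in fasted Nts+/+ livers, and at 41.1, 49.0 and 54.4 CPM in fed and 81.8, 90.4 and 115 CPM in fasted Nts-/- livers. The groups did not overlap in either genotype. It rose by a log2 fold change of 0.99 ± 0.16 in Nts-/- livers (edgeR adjusted p 0.00124), which held with each mouse left out, while its value of 0.36 ± 0.16 in Nts+/+ did not pass (adjusted p 0.144). The difference between the genotypes, 0.63 ± 0.23, had the smallest unadjusted p of the 54 genes (0.0152) and an adjusted p of 0.897.

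The other GST genes did not pass in either genotype. Mgst1, the most abundant, had log2 fold changes of 0.16 ± 0.16 (edgeR adjusted p 0.531) and 0.42 ± 0.16 (adjusted p 0.0859), Gstz1 of -0.058 ± 0.17 (adjusted p 0.844) and 0.098 ± 0.17 (adjusted p 0.74), and Gstp1 of -0.48 ± 0.40 (adjusted p 0.451) and -0.72 ± 0.41 (adjusted p 0.259). Gstp1 shares 56.3% of its 50-base words with Gstp2, so counts of these copies are uncertain. Gsta1, Gsta2 and Gsta4, named here after their values were seen, were highest in mouse 319, a fed Nts-/- liver, at 21.1, 69.0 and 105 CPM. In the other 11 livers Gsta1 reached at most 5.57, Gsta2 at most 32.0 and Gsta4 at most 66.8 CPM. Gsta1 shares 91.2% of its 50-base words with other genes, most with Gsta13, and Gsta2 shares 40.5%, so their counts are uncertain too. Gsta4 shares none.

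**Figure D4:**
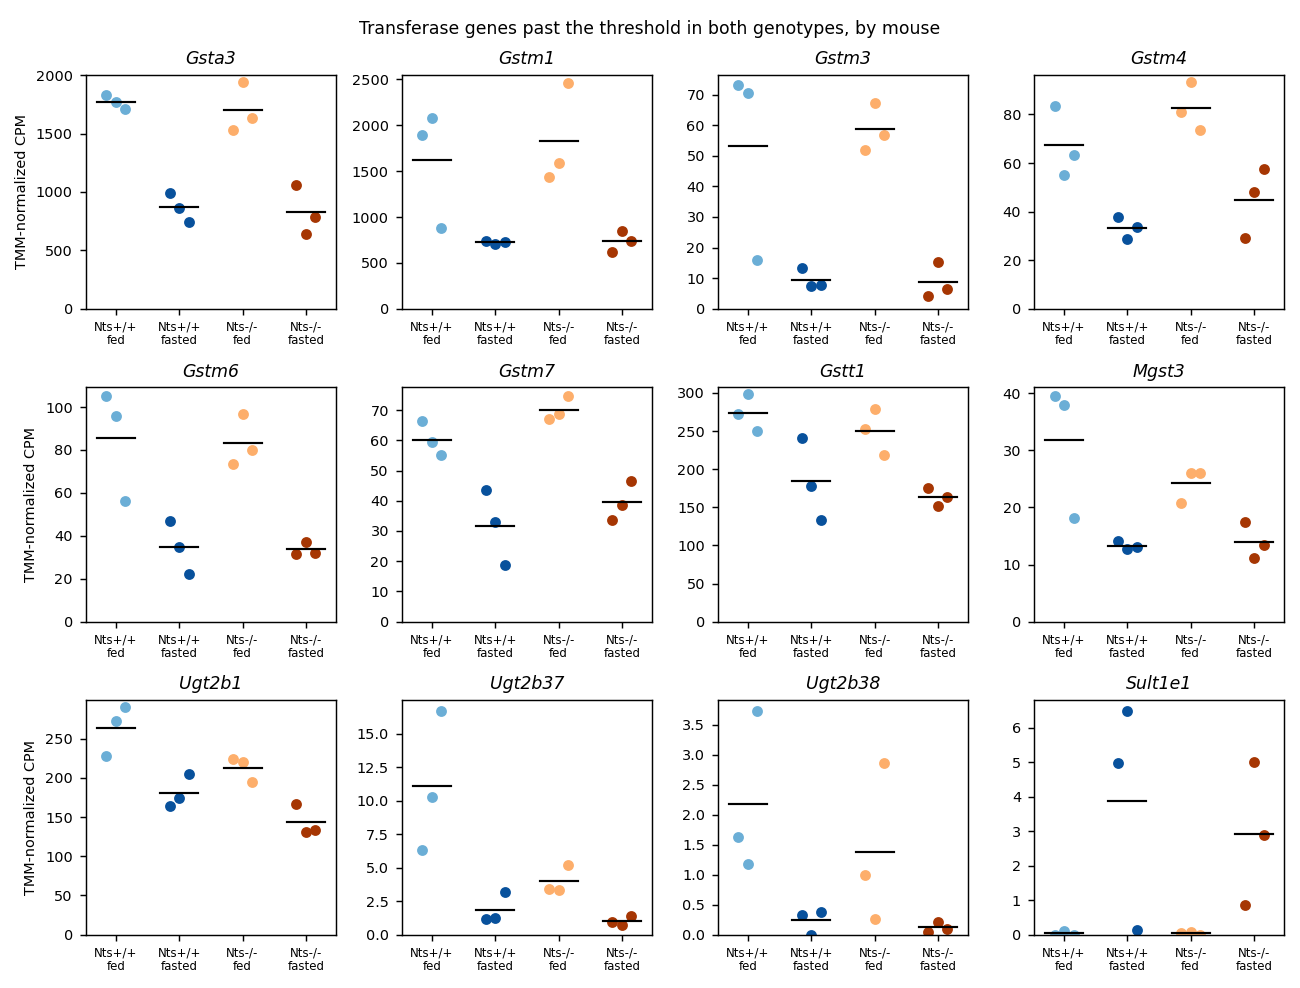
TMM-normalized CPM of the 12 genes past the threshold in both genotypes, with 1 point per mouse, a line at the mean of each group of 3 and axes from 0. Within each genotype fasted livers lie below fed ones in 11 panels, as for Gsta3 in Nts+/+ (746 to 991 against 1710 to 1830 CPM), and above them for Sult1e1, where mouse 322 stays near 0 at 0.136 CPM.

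The UGT genes that fell with fasting in both genotypes lay in the Ugt2b cluster on chromosome 5. Ugt2b enzymes conjugate steroids, bile acids and fatty acid derivatives. Of 8 tested UGT2 genes 3 fell in Nts+/+, while 3 fell and 1 rose in Nts-/- livers. Over all genes tested 9.19% and 9.14% fell. The 3 that fell include Ugt2b38, which passed the filter on low counts through fed livers, so its test is no support. All 7 tested UGT1 genes missed the threshold in Nts+/+, and 1 rose and 1 fell in Nts-/-. Neither of the UGT3 genes, which use other sugar donors, passed: the abundant Ugt3a2 had log2 fold changes of 0.18 ± 0.14 (edgeR adjusted p 0.42) and 0.43 ± 0.14 (adjusted p 0.0504).

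Ugt2b1 was the most abundant of the 3, with 228, 272 and 291 CPM in fed and 164, 174 and 205 CPM in fasted Nts+/+ livers. In livers labelled Nts-/- it had 224, 220 and 195 CPM fed and 167, 131 and 134 CPM fasted. No fasted value reached the fed range of its genotype. The log2 fold changes were -0.54 ± 0.14 (edgeR adjusted p 0.0194) and -0.56 ± 0.14 (adjusted p 0.0165). They were lost without mouse 257, 323, 265 or 282 in Nts+/+ (adjusted p 0.0588 to 0.0768) and without mouse 277, 303, 290 or 295 in Nts-/- (adjusted p 0.0549 to 0.0753).

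Ugt2b37 fell from 6.35, 10.3 and 16.7 CPM to 1.19, 1.22 and 3.17 CPM in Nts+/+ and from 3.41, 3.29 and 5.23 CPM to 0.962, 0.736 and 1.42 CPM in Nts-/- livers, with no overlap. The log2 fold change was -2.54 ± 0.44 in Nts+/+ (edgeR adjusted p 0.00266), held with each mouse left out, and -1.89 ± 0.46 in Nts-/- (adjusted p 0.0161), lost without mouse 284 or 290 (adjusted p 0.0610 to 0.0700). Ugt2b38 had few reads. Its counts summed to 160 in fed and 21 in fasted Nts+/+ livers, a ratio of 8.75 (95% interval 5.53 to 14.5, counting error only), and to 116 and 10 in Nts-/- livers, a ratio of 11.2 (5.88 to 24). It passed the filter on low counts through fed livers (5 fed and 1 fasted liver at its level). The edgeR adjusted p was 0.0418 and 0.0474, or 0.117 and 0.125 without the filter, and the calls were lost with any mouse left out in Nts+/+ and with any mouse but 303 left out in Nts-/-, with adjusted p of up to 0.105 and 0.148. Ugt2b37 shares 18.3% and Ugt2b38 37.4% of 50-base words with other genes, most with Ugt2b5. Ugt2b5 itself, an abundant steroid-conjugating enzyme, had log2 fold changes of -0.33 ± 0.21 (adjusted p 0.297) and -0.16 ± 0.21 (adjusted p 0.641), and Ugt2b36 of -0.27 ± 0.16 (adjusted p 0.259) and 0.024 ± 0.16 (adjusted p 0.939).

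The letters TGACTCA or TGAGTCA, to which AP-1 factors such as JUN and FOS are known to bind and which are each other's reverse complement, were present in 5 of 52 windows (9.62%) beside 5.16% of all 27025. The holders were Ugt2b37, Gstm5, Gstp1, Gstp2 and Mgst2. The stretches of Ugt2b37 and Gstm5 are shown because these genes passed with fasting, with the letters in capitals, from chr5:87254936-87254995 (minus) and chr3:107895651-107895710 (plus).
Ugt2b37: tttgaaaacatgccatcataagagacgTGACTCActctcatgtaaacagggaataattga
Gstm5: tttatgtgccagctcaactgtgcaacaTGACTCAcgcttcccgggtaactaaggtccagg
The match begins 180 and 176 bases before the start. A match describes the letters of the window and no binding.

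The UGT genes that rose did so by small steps and passed in Nts-/- livers only. Ugt1a1 stood at 645, 782 and 624 CPM in fed and 1120, 918 and 1090 CPM in fasted Nts-/- livers, a log2 fold change of 0.61 ± 0.14 (edgeR adjusted p 0.0106) that held with each mouse left out. In Nts+/+ livers it stood at 846, 908 and 725 CPM fed and 1080, 1100 and 1100 CPM fasted, or 0.40 ± 0.14 (adjusted p 0.0646). Values of fed and fasted livers were apart in both genotypes, and the difference between genotypes, 0.21, did not pass (adjusted p 0.911). Ugt2b35 rose by 0.43 ± 0.14 (adjusted p 0.0444) in Nts-/- and had 0.39 ± 0.14 (adjusted p 0.0661) in Nts+/+ livers, and its call was lost when any mouse but 303 was left out (adjusted p 0.0546 to 0.182). Ugt1a6a, a phenol-conjugating enzyme, fell by 0.37 on the log2 scale in Nts-/- livers (SE 0.12, adjusted p 0.0413), lost when any mouse but 319 was left out (adjusted p 0.0531 to 0.173), and had -0.24 ± 0.12 (adjusted p 0.171) in Nts+/+.

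These Ugt1a values can depend on how reads were divided among copies, which was not tested. The Ugt1a genes are alternative first exons joined to the same remaining exons (they end at about the same base of chromosome 1), and each shared 66.2% to 100% of its 50-base words with other genes. With all Ugt1a counts summed, the log2 fold change with fasting was 0.19 ± 0.15 (edgeR adjusted p 0.416) in Nts+/+ and 0.27 ± 0.15 (adjusted p 0.246) in Nts-/- livers. The sum takes the place of each Ugt1a gene. Ugt1a1 gives it the most counts (314084 over all mice, beside 34260 for Ugt1a6a). It therefore cannot show how reads were divided, nor test the calls of single Ugt1a genes.

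Among sulfotransferases, Sult1e1 was counted almost only in fasted livers. Sult1e1, which inactivates estrogens, had 0, 3 and 0 counts in fed Nts+/+ and 2, 2 and 0 in fed Nts-/- livers. Fasted Nts+/+ livers had 105, 196 and 5 counts and fasted Nts-/- livers 19, 116 and 123. Mouse 322, with 5 counts, was the fasted liver that stayed nearest to the fed ones. Scaled to depth, the summed counts were 88.8 times higher in fasted Nts+/+ (95% interval 30.1 to 433) and 66.7 times higher in fasted Nts-/- livers (25.7 to 247), where the intervals cover counting error only. All 3 fed Nts+/+ counts came from mouse 257. The fitted log2 fold change in Nts+/+, 6.47, which depends on the prior count at such levels, was 9.78 without mouse 257 and 5.83 without mouse 282. No fed and 5 fasted livers reached the level the filter on low counts asks for, so the edgeR adjusted p of 0.0229 and 0.0291 describe a gene that was tested because it is high in fasted livers. Without the filter they were 0.0548 and 0.0681. The calls were also lost without mouse 254, 257, 323 or 282 in Nts+/+ (adjusted p 0.0625 to 0.0926) and with any mouse but 284 left out in Nts-/- (adjusted p 0.0616 to 0.110). Even the highest liver had 6.48 CPM.

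Sult1d1, which sulfates catecholamines and lies beside Sult1e1 on chromosome 5, passed in Nts+/+ livers. It rose from 106, 116 and 153 CPM to 260, 259 and 169 CPM, or 0.88 ± 0.23 on the log2 scale (edgeR adjusted p 0.0184, lost without mouse 254, 257, 265 or 282 with adjusted p of 0.0584 to 0.0858). In livers labelled Nts-/- it went from 132, 202 and 112 CPM to 216, 221 and 257 CPM, or 0.64 ± 0.23 (adjusted p 0.0705). Fed and fasted values were apart in both. Sult1c2 fell in Nts+/+ from 8.27, 6.69 and 3.77 CPM to 2.75, 3.04 and 3.20 CPM, or -1.06 ± 0.34 (adjusted p 0.0451, lost when any mouse but 323 was left out with adjusted p of 0.0851 to 0.187). Its value in Nts-/- was -0.89 ± 0.34 (adjusted p 0.0884). The differences between genotypes were -0.24 for Sult1d1 (adjusted p 0.942) and 0.17 for Sult1c2 (adjusted p 0.97). Sult1a1, the most abundant of the family, had 0.30 ± 0.25 (adjusted p 0.443) and 0.62 ± 0.25 (adjusted p 0.109).

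The Sult2a genes, which sulfate bile acids and steroids such as DHEA, varied strongly between mice of the same group. They were named after their values were seen. Sult2a1 ranged from 0.952 to 536 CPM, a ratio of 563, with 1.14, 82.4 and 19.3 CPM in fed Nts+/+, 14.0, 385 and 26.0 in fasted Nts+/+, 0.952, 50.5 and 11.8 in fed Nts-/- and 536, 62.5 and 512 in fasted Nts-/- livers. Mice 284, 295 and 282 were the 3 highest for Sult2a1, Sult2a2, Sult2a3, Sult2a4, Sult2a5 and Sult2a6 alike. All 3 were fasted, 2 labelled Nts-/- and 1 labelled Nts+/+, while the other 3 fasted livers stayed below the highest fed liver in each of the 6 genes. Over these 6 genes the pooled SD within groups was up to 2.60 on the log2 scale, beside a median of 0.379 over the 54 genes and 0.236 over all genes tested. None of the 8 Sult2a genes passed with fasting, with edgeR adjusted p of at least 0.34 in Nts+/+ and 0.188 in Nts-/- livers. Summed to 1 value, the Sult2a counts had log2 fold changes of 0.22 ± 0.61 (adjusted p 0.84) and 1.25 ± 0.62 (adjusted p 0.201).

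Their neighbours on chromosome 7 varied less. Sult2a8, the most abundant at 135 CPM per kb, was highest in mouse 323 (527 CPM) and lowest in mouse 319 (109 CPM), a ratio of 4.84. Sult2a7 ranged from 1.53 to 9.62 CPM, a ratio of 6.28, with mouse 284 highest (9.62 CPM) while mouse 295 had 7.32 and mouse 282 had 2.87 CPM. Sult2a2 holds 54.4% and Sult2a1 30.3% of its 50-base words in common with other genes, most with each other, and Sult2a3 and Sult2a6 hold 8.08% and 6.94%. The part of shared reads in the common order of mice was not tested.

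**Figure D5:**
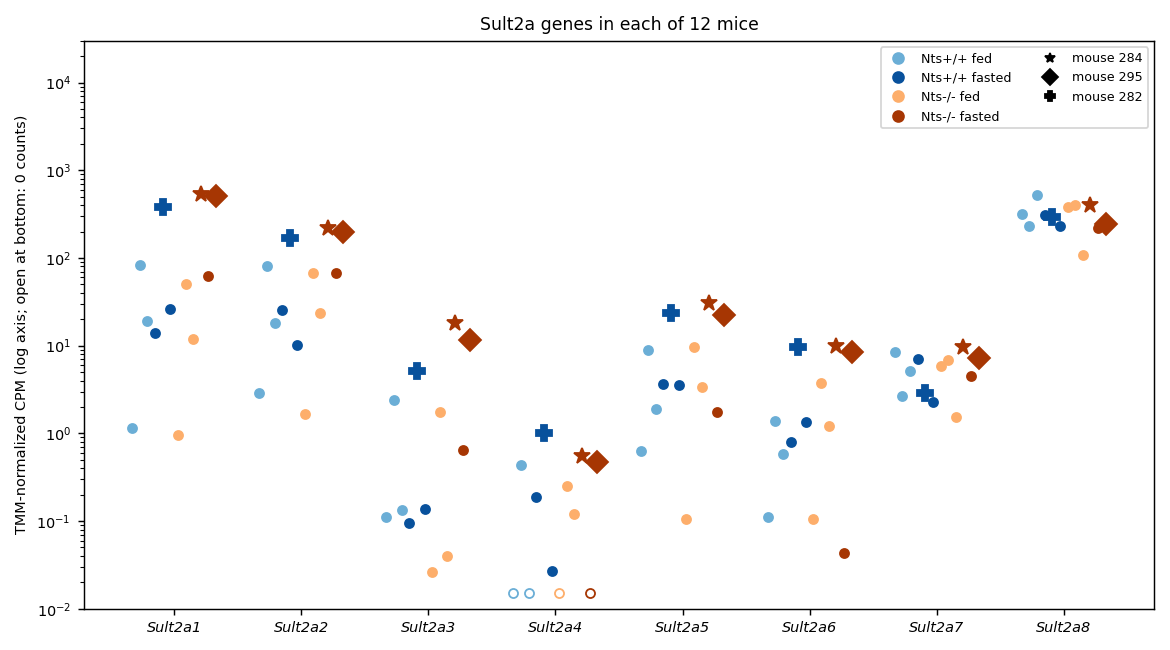
TMM-normalized CPM of the 8 Sult2a genes on a log axis, with 1 symbol per mouse coloured by group and open symbols at the bottom for 0 counts. Mice 284, 295 and 282 top Sult2a1 to Sult2a6 and not Sult2a8, and in those 6 genes the other fasted mice stay below the highest fed mouse.

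The fasting response was alike in sign in the livers of both labels, which share no mouse. Of 54 genes, 47 (87.0%) changed in the same direction, beside 74.4% of all genes tested. Over the 54 genes the log2 fold changes had a Pearson r of 0.917 and a Spearman rho of 0.909, where the points share the libraries, reads of close copies and the same fitted spread. Over all genes tested the Pearson r was 0.698. The 54 genes include Sult1e1 (6.47 and 5.92) and Ugt2b38 (-3.17 and -3.50), which entered the test through 1 feeding state. Sult2a3 (1.00 and 4.08) and Sult2a4 (1.41 and 1.56) also leaned on fasted livers to pass the filter on low counts. Sult2a3 reached its level in 2 fed and 4 fasted livers, and Sult2a4 in 1 fed and 3 fasted livers. None of these genes is support for this likeness. Fasted values of Nts+/+ livers lay wholly above or wholly below the fed ones for 21 of 54 genes (6 above, 15 below), beside 36.0% of all genes, and for 27 of 54 in Nts-/- livers (12 above, 15 below), beside 35.2%.

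To ask whether the labelled genotype changed these genes, fed and fasted livers were compared separately. None of the 54 genes passed between livers labelled Nts-/- and Nts+/+ in the fed state, in the fasted state or in the difference between the fasting responses, with either edgeR or DESeq2. Over all genes, 0% passed in each with edgeR, and 12, 4 and 3 genes passed with DESeq2. At an unadjusted edgeR p under 0.05 the counts were 2, 3 and 1 of 54, beside 6.34%, 4.96% and 4.80% of all genes. The intervals are wide: among the 10 genes with the highest level per kb, log2 differences lay between -0.28 (Ugt2b5) and 0.17 (Gstm1) in fed and between -0.18 (Gstp1) and 0.15 (Ugt3a2) in fasted livers, with standard errors of 0.141 to 0.403.

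The smallest p in fed livers belonged to Ugt2b37, lower by a log2 difference of -1.48 ± 0.42 (p 0.00398, adjusted p 0.715) in Nts-/- livers, where all 3 values (3.29 to 5.23 CPM) were below the lowest of Nts+/+ (6.35 CPM). Ugt1a7c followed with -1.36 ± 0.48 (edgeR p 0.0165, adjusted p 0.734), but its whole transcript is shared with Ugt1a6a. Ugt2b1 was lower in Nts-/- livers in both states, at -0.31 ± 0.14 fed (p 0.0503, adjusted p 0.777) and -0.33 ± 0.14 fasted (p 0.0389, adjusted p 0.917). Fed values did not overlap (195 to 224 against 228 to 291 CPM), and fasted values did. In fasted livers Gstt2 was higher by 0.48 ± 0.16 (p 0.0102, adjusted p 0.917) and Ugt1a10 by 0.69 ± 0.28 (p 0.027, adjusted p 0.917). The sum of all Ugt1a counts, of which Ugt1a10 is a small part, had -0.058. Values of the livers of both labels did not overlap for 5.56% (fed) and 3.70% (fasted) of the 54 genes, beside 10.6% and 12.2% of all genes.

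Genes around the transferases were read from fixed lists. Counts past the threshold in these lists stand beside 18.1% of all genes tested in Nts+/+ and 16.8% in Nts-/- livers. Among 5 genes of PAPS supply, both synthases fell: Papss1 by a log2 fold change of -0.92 ± 0.21 (edgeR adjusted p 0.00921) and -1.28 ± 0.21 (adjusted p 0.00123), and Papss2, the main liver form, by -0.81 ± 0.26 (adjusted p 0.047) and -1.32 ± 0.26 (adjusted p 0.0052), in Nts+/+ and Nts-/- livers. Mean Papss2 was 272 CPM fed and 155 fasted in Nts+/+, and 351 and 141 in Nts-/-. None of 5 genes of UDP-glucuronate supply passed. Of 10 tested genes of glutathione synthesis, recycling and breakdown, 2 rose and 1 fell in Nts+/+ and 2 rose in Nts-/-, with list medians of -0.15 and -0.087. The gene that fell was Chac2, which breaks glutathione down (-0.60 ± 0.16, adjusted p 0.0213), and Gclc, the catalytic part of the first enzyme of synthesis, had -0.85 ± 0.28 (adjusted p 0.0545) and -0.64 ± 0.28 (adjusted p 0.137). Oplah, which returns 5-oxoproline to glutamate, rose in both (0.84 ± 0.14, adjusted p 0.00147, and 0.89 ± 0.14, adjusted p 0.000852). Of 3 tested deconjugating enzymes, none passed in Nts+/+ and 1 fell in Nts-/- livers.

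The listed export pumps moved both ways. Of 7, 1 rose and 2 fell in Nts+/+ and 2 rose and 2 fell in Nts-/- livers. These stand beside 18.1% and 16.8% of all genes past the threshold. The pumps that fell were Abcb11 and Abcc6 in both genotypes. Abcg2 rose by 0.63 ± 0.13 in Nts-/- (edgeR adjusted p 0.00612) and had 0.34 ± 0.13 in Nts+/+ livers (adjusted p 0.0936). Abcc2 had 0.30 in each (adjusted p 0.151 and 0.157). Abcc3, which carries glucuronides to blood, rose by 0.69 ± 0.16 (edgeR adjusted p 0.00817) and 0.66 ± 0.15 (adjusted p 0.0108). Abcb11, the bile salt pump of the canaliculus, went from 727 to 255 CPM and from 721 to 250 CPM on average, or -1.51 ± 0.20 (adjusted p 0.000293) and -1.53 ± 0.20 (adjusted p 0.000206). Abcc6 fell as well, by 0.92 and 0.53 on the log2 scale (adjusted p 0.000237 and 0.00716).

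Of 15 regulators, 2 rose in Nts+/+, and 1 rose and 1 fell in Nts-/- livers, beside 18.1% and 16.8% of all genes. Nr1i3, the receptor CAR that is known to act on Ugt1a1 and several GST genes, rose in both, by 0.49 ± 0.15 (edgeR adjusted p 0.0333) and 1.68 ± 0.15 (adjusted p 2.4e-05). It had 139 to 191 CPM in fed and 219 to 230 CPM in fasted Nts+/+ livers, and 78.9 to 93.3 CPM fed and 236 to 307 CPM fasted in Nts-/- livers. The difference between these responses was 1.18 ± 0.21 (edgeR p 6.43e-05, adjusted p 0.888). Between the labels, Nr1i3 in Nts-/- livers differed by -0.86 ± 0.15 fed (p 5.16e-05, adjusted p 0.356) and 0.32 ± 0.15 fasted (p 0.0459, adjusted p 0.917). Its values did not overlap in either state, and no adjusted p of these 3 comparisons passed. Of 13 target genes of such regulators, 4 rose and 2 fell in each genotype. Srxn1, a target of NRF2, rose by 1.18 ± 0.14 (adjusted p 0.00016) and 0.87 ± 0.14 (adjusted p 0.00101). The other NRF2 targets of the list did not pass: Gclc is given above, Gclm had -0.19 and -0.25 (adjusted p 0.307 and 0.197), Nqo1 0.28 and 0.26 (adjusted p 0.242 and 0.304) and Txnrd1 0.16 and 0.22 (adjusted p 0.479 and 0.328). Cyp4a10, Cyp4a14 and Vnn1, targets of PPARα, rose by 3.38, 3.28 and 2.19 in Nts+/+ and by 3.88, 3.72 and 2.87 in Nts-/- livers (adjusted p at most 0.00462). Cyp2c29, a target of CAR, fell by 0.61 and 0.70 (adjusted p 0.0433 and 0.0256), and Cyp1a2, a target of the aryl hydrocarbon receptor, by 1.41 and 1.15 (adjusted p 0.00935 and 0.0249). Other Cyp genes of the same list of targets did not pass. Cyp2b10 had 0.65 and -0.72 (edgeR adjusted p 0.647 and 0.623) and Cyp3a11 0.59 and 0.68 (adjusted p 0.227 and 0.169). Cyp1a1 had -0.55 and -0.78 (adjusted p 0.433 and 0.266).

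Markers of other cells also moved with fasting. The sum over 6 cholangiocyte markers was 34.0 to 49.9 CPM in fed and 13.8 to 26.2 CPM in fasted Nts+/+ livers, and 33.5 to 35.7 and 15.1 to 29.7 CPM in Nts-/- livers. Most of it was Spp1, and Krt19 averaged at most 0.531 CPM in any group. The sum over 6 sinusoidal endothelium markers was 167 to 239 against 141 to 158 CPM and 184 to 207 against 136 to 164 CPM, with 1 gene higher (Lyve1, 1.17 ± 0.24, edgeR adjusted p 0.00545) and 2 lower in Nts+/+ and 1 lower in Nts-/- livers. Of 6 stellate markers, 2 fell in Nts+/+ and 4 in Nts-/- livers, with medians of -0.44 and -0.79 on the log2 scale, and their sum was 222 to 244 against 184 to 209 CPM and 187 to 265 against 189 to 202 CPM. Sums over 7 Kupffer markers were 484 to 549 against 235 to 409 CPM in Nts+/+ and overlapped in Nts-/- livers (311 to 405 against 307 to 465 CPM). The adipocyte sum rose from at most 1.24 to at least 39.9 CPM through Cidec, with Lep and Retn at 0 in every liver, and the intestinal sum rose to at most 212 CPM mainly through Fabp2, with Sis and Cdx1 at 0. The part of these cells in the fall of the GST genes was not tested. Hepatocyte sums were 113000 to 135000 CPM fed and 116000 to 139000 CPM fasted in Nts+/+ livers. In Nts-/- livers they were 106000 to 124000 and 118000 to 125000 CPM. Most of this sum was Alb (group means of 92900 to 106000 CPM), and 2 hepatocyte markers moved in opposite directions. Apoa1 rose by 0.73 in Nts+/+ and 1.00 in Nts-/- livers (edgeR adjusted p 0.0316 and 0.00694). Ttr had -0.63 and -0.90 (adjusted p 0.0226 and 0.0037).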

How the data were processed

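Liver RNA of 12 mice was sequenced. The authors deposited 1 table of expected counts per gene, which are estimated reads that need not be whole (6.94% to 8.66% of values in a liver are not) and are not scaled between mice. Trimmomatic, RSEM and GRCm38 are named in the submitters' processing notes. Count columns of other samples number 0.

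Counts were rounded. In R 4.3.3, edgeR 4.0.16 (filterByExpr, TMM, robust quasi-likelihood) fitted 1 model with a mean for each of 4 groups to 13812 genes, and p values were Benjamini-Hochberg adjusted, with 0.05 as the threshold. Log2 fold changes stand with their SE. A floor of 3 counts is 0.0663 to 0.136 CPM, and floors and intervals cover counting error only. The labels name separate mice, numbered as in the text. The SD of CPM in log2 within groups used a pseudocount of 0.1 CPM. Transcript lengths and shared words of 50 bases came from GENCODE vM39, matched by Ensembl identifier, and promoter windows from RefSeq. Gsta4, Gstt2, Sult2a1, Sult2a2, Sult2a7, Ugt1a6b and Ugt3a2 had no window. The motifs reported were kept from a wider look at these windows, and 1 other motif is not reported here. The script was tested on simulated counts.

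The genes, lists and tests were chosen with earlier results of these data known. Named are genes past the threshold in both genotypes or in 1, the 3 smallest p in each genotype comparison and interaction, the 10 highest per kb, and listed pathway genes past the threshold in both. Marker lists covered hepatocytes, cholangiocytes, sinusoidal endothelium, Kupffer and stellate cells, lymphocytes, erythroid cells, kidney, intestine and adipocytes. Over all livers, lymphocyte sums were 3.84 to 7.66 and erythroid sums 150 to 394 CPM.

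Other settings tried were RLE or upper-quartile scaling, DESeq2 1.42.0, a fit without the count filter, a fit that required 10 or more counts in each liver, fits of the 2 groups compared alone, a threshold of 0.10 on adjusted p, a size limit of 1 on the log2 scale, near-identical genes summed, and leaving out single mice.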

Additional observations from a re-analysis of the deposited data

How the results depend on the processing

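Counts of members past the threshold with fasting were 15 and 16 in Nts+/+ and Nts-/- livers. Normalization, filter, test, adjusted p under 0.10, the mice fitted and summing of near-identical genes gave 11 to 17 and 11 to 24. With changes of 1 or more on the log2 scale required, the counts were 10 and 7. Leaving out 1 mouse gave 6 to 12 in Nts+/+ and 7 to 12 in Nts-/- livers, fits that have fewer mice. The genotype comparisons and the interaction gave 0 under all alternatives run. Over the named genes, alternatives kept direction and side of the threshold 512 times, lost a call 100 times and gained one 5 times. The sign turned 3 times, each with the Ugt1a counts summed: Ugt1a6a with fasting (0.19 in Nts+/+ and 0.27 in Nts-/-) and Ugt1a10 between genotypes in fasted livers (-0.058), because each then takes the value of the whole Ugt1a sum. Without the filter on low counts, Gstm3 (adjusted p 0.0501), Sult1e1 (0.0548), Sult1c2 (0.066) and Ugt2b38 (0.117) missed the threshold in Nts+/+, and Ugt2b35 (0.0645), Sult1e1 (0.0681), Mgst3 (0.0844), Ugt1a6a (0.107) and Ugt2b38 (0.125) in Nts-/- livers. The labels give each mouse its own number, so no mouse could be paired with itself. The labels used here name no litter, so no pairing by litter was made. Depth limits Sult1e1, Ugt2b38 and the untested genes.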

Other observations

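Individual livers were extreme in several genes at once, which is a description without a test. Over the 54 tested genes, mouse 319, a fed liver labelled Nts-/-, was the lowest of the 6 fed livers for 19 genes. The other fed livers were the lowest for 3 to 14. Mouse 319 was the highest for 9 genes, within the 2 to 13 of the other fed livers. It had the lowest Sult3a1 (17.5 CPM, beside at least 42.1 CPM in the other 11 livers), Sult3a2 (0.282 CPM, beside at least 2.02 CPM) and Sult5a1 (0.765 CPM, beside at least 1.73 CPM), and the highest Gsta4, a gene that shares no 50-base word with others. Among the 6 fasted livers, mouse 322 (Nts+/+) was the lowest for 19 genes, where the others were the lowest for 3 to 12. Mouse 284 (labelled Nts-/-) was the highest for 15, where the others were the highest for 4 to 11. The least variable gene within groups was Ugt1a6a, with a pooled SD of 0.11 on the log2 scale, and the most variable was Sult2a1, with 2.60.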
